A study of Danio rerio with 24 samples.

Results

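The regions described here are short stretches of the zebrafish genome that carried a peak of H3K27me3, the trimethylation of histone H3 at lysine 27, in the larval intestine and that also carried a peak of H3K4me3, the trimethylation at lysine 4. Touching or overlapping peaks of the 6 H3K27me3 lists were merged into 12236 regions. Of these, 11540 were shorter than 5000 bases, and 3425 of the short regions shared 1 base or more with a peak of any of the 6 H3K4me3 lists. These 3425 regions, 28.0% of all merged H3K27me3 regions and 29.7% of the short ones, are called dual-mark regions. They were chosen by the peak calls of both marks, so the presence of either mark on them is a description and carries no test. The other 8115 short regions had no H3K4me3 peak in any list, and the 696 regions of 5000 bases or more are called long domains.

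Intestines were dissected from AB wild-type zebrafish larvae that carried the transgene tg(cldn15la:GFP), at 5, 7 and 9 days post fertilization (dpf). All ages shared this genotype, and no other genotype or treatment was compared. The marks were mapped by chromatin immunoprecipitation and sequencing (ChIP-seq) in pools of 25 intestines, with 2 libraries for each mark and age and 1 input library, made without an antibody, from 5 intestines at each age. RNA was sequenced from pools of 10 intestines, with 3 libraries for each age, and served here only to check the tissue. Nothing in the labels says whether the pools of 1 age came from separate clutches or days.

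H3K27me3 is written by Polycomb repressive complex 2 and is found at silenced developmental genes, where it can spread over long domains. H3K4me3 is written by the Set1 and MLL (Kmt2) methyltransferases and marks promoters, above all those of active genes. In embryonic stem cells, promoters of developmental genes can hold both marks, a state called bivalent or poised, and such promoters are known to resolve to 1 of the marks as cells differentiate. A whole intestine holds many cell types, so a region with peaks of both marks can have them on the same nucleosomes, on different alleles or in different cells. These cases cannot be told apart in the peak lists, nor can fewer cells with a mark be told apart from less of the mark per cell.

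The tissue label was checked in the RNA. All 10 enterocyte markers were present, and their summed normalized read counts were 57741 to 102535 at 5 dpf, 133605 to 207572 at 7 dpf and 180649 to 289717 at 9 dpf. The 5 dpf libraries lay below all others, and those of 7 and 9 dpf overlapped. Markers of other cells were present too. Summed smooth muscle and mesenchyme markers were 8317 to 14531 at 5 dpf and 8083 to 11417 at 9 dpf. Liver markers were 532 to 2601 and 326 to 368 at these ages, and epidermal markers 24870 to 41722 and 33572 to 44656. The epidermal sum came almost wholly from krt4, which ran from 24540 to 51023 over all libraries. The highest counts of tp63, col17a1a and krt5 in any library were 108.4, 129.9 and 190.6. Of the 13 lists of other cell types, 7 did not overlap between 5 and 9 dpf. The share of all genes without overlap was not counted, so this number is a description only. Some lists were incomplete in the RNA data, with 3 of 5 goblet, 4 of 6 exocrine pancreas and 2 of 3 erythrocyte markers found. Summed goblet markers (649 to 744 at 5 dpf and 1020 to 1273 at 9 dpf) and leukocyte markers (222 to 270 and 391 to 474) were higher at 9 dpf. Liver, enteroendocrine (378 to 400 and 312 to 376), enteric neuron and glia (779 to 797 and 602 to 666), erythrocyte (83.9 to 140 and 60.8 to 80.2) and skeletal muscle markers (749 to 1141 and 497 to 606) were lower. The other 6 lists overlapped. The higher goblet sum rested largely on agr2, which ran from 146.4 to 983.8 over all libraries, with a median of 199.0. Its highest count exceeded all goblet sums at 5 dpf and at 7 dpf (576 to 767), so it came from a 9 dpf library. The other goblet markers found had highest counts of 427.0 and 175.4 in any library, and whether they rose with age was not tested. Among the markers of other cell types found in the table, a single islet gene, sst2, stayed under 10 normalized read counts in every library. The part that a shift in cell types has in the results on the marks was not tested.

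The lists differed in length with age, which bears on every count given here. The H3K27me3 lists held 6163 and 5704 peaks at 5 dpf, 5922 and 5990 at 7 dpf, and 9119 and 8753 at 9 dpf. The H3K4me3 lists held 16824 and 16946, 17703 and 17656, and 18593 and 18799 peaks at the same ages. The median deposited -log10 q of an H3K4me3 peak was 20.0 and 30.4 at 5 dpf, 40.0 and 38.2 at 7 dpf, and 56.6 and 54.5 at 9 dpf. The occupancy by age, the states and their changes, and the gains, losses and widths are therefore given for all peaks and again for lists cut to equal length, while the other results on age rest on all peaks alone. In the lists of equal length each H3K27me3 list kept its 5704 peaks with the highest -log10 q, each H3K4me3 list kept its 16824, and regions were defined anew. How deeply each ChIP library was sequenced is unknown here, and the part of depth in the list lengths was not tested. An exact two-sided permutation test of 2 libraries against 2 cannot give a p below 0.333, so libraries are shown one by one and no p is given.

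The dual-mark regions were 174 to 4996 bases long, with a median of 1465 and quartiles of 788 and 2406. They were longer than the short regions without H3K4me3, whose median was 667 bases. Together they spanned 5848423 bases, 27.9% of all bases in merged H3K27me3 regions. The share of dual-mark regions grew with length, from 12.1% of short regions under 500 bases to 21.7% at 500 to 1000 bases, 39.8% at 1000 to 2000 bases and 57.0% at 2000 to 5000 bases. Of the long domains, 485 (69.7%) overlapped an H3K4me3 peak. The shares thus differed by length class throughout. A longer region has more bases that can meet an H3K4me3 peak, and the part of this in the shares was not tested. Length also went with the number of H3K27me3 lists merged. The median was 393 bases for dual-mark regions in 1 list and 2372 for those in all 6.

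At the length limit, the longest dual-mark regions were chr13:40643786-40648781 with 4996 bases and chr23:24653097-24658079 with 4983 bases (GRCz10, counted from 1, here and for all regions). The shortest H3K4me3-bearing regions just outside it were chr7:45978779-45983782 with 5004 bases and chr1:15700613-15705624 with 5012 bases. At the overlap limit, the smallest overlap with H3K4me3 over all lists was 2 bases, at chr10:15295520-15296598, and 3 bases, at chr23:36043295-36045813. The overlap was 50 bases or fewer in 32 dual-mark regions, and 12 short regions without H3K4me3 lay within 50 bases of an H3K4me3 peak. Few regions thus sat at the overlap limit. The input lists, of 717 to 809 peaks, had a peak on 27 dual-mark regions (0.788%).

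Nearly all dual-mark regions had a peak of each mark in some library of the same age. In 3361 of 3425 (98.1%), some library of each mark had a peak at the same age, and in 3356 (98.0%) the peaks shared bases. In the other 64 regions no age had a peak of each. The high shares follow in part from the rule, which needs each mark in some list. At 9 dpf each list of either mark had a peak on 86.5% to 89.4% of the regions, so a shared age was likely beforehand. Peaks of both marks in both libraries of an age were found at 1 age or more in 2387 regions (69.7%). The strictest group, 887 regions (25.9%), had a peak of both marks in all 12 libraries.

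The definition was also read in libraries it had not used. When regions were merged and chosen from the first library of each mark and age alone, 3020 were dual-mark, and the second libraries had an H3K27me3 peak on 91.0% of them at some age, an H3K4me3 peak on 93.4%, and both at the same age on 84.7%. The short regions without H3K4me3 from the same libraries, 6802 in number, had an H3K27me3 peak in the second libraries in 64.8% and an H3K4me3 peak in 3.44%. With the roles of the libraries exchanged, the shares were 92.8%, 92.7% and 85.1% of 2988 dual-mark regions, and 67.4% and 3.10% of 6412 other short regions. Dual-mark regions were thus found again more often than short regions that had H3K27me3 alone. Dual-mark regions were also longer, which bears on this share.

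By all peaks, H3K27me3 lay on more dual-mark regions at 9 dpf than at the earlier ages. A peak was present on 2194 (64.1%) and 2094 (61.1%) of the 3425 regions in the 5 dpf libraries, on 2196 (64.1%) and 2209 (64.5%) in the 7 dpf libraries, and on 3010 (87.9%) and 2964 (86.5%) in the 9 dpf libraries. The means were 62.6% ± 2.06 at 5 dpf, 64.3% ± 0.268 at 7 dpf and 87.2% ± 0.950 at 9 dpf (SD, n = 2). The 4 libraries of 5 and 7 dpf lay between 61.1% and 64.5%, and both 9 dpf libraries lay above all of them. The rule takes peaks of any age, so regions admitted through H3K27me3 at 9 dpf alone count as without it at 5 and 7 dpf. Without 1 of the 9 dpf H3K27me3 lists, 3249 or 3302 regions were dual-mark, and without 1 of the 5 dpf lists 3405 or 3409. The part of this in the difference between ages was not tested. Short regions without H3K4me3 went from 32.3% and 29.9% at 5 dpf to 30.4% and 30.8% at 7 dpf and 59.5% and 55.9% at 9 dpf. Long domains had a peak in 99.4% to 99.7% in every H3K27me3 library.

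With lists of equal length, 2562 regions were dual-mark, and the 9 dpf libraries still stood above the others. H3K27me3 lay on 68.0% and 67.4% of them at 5 dpf, 69.1% and 68.9% at 7 dpf, and 77.8% and 76.7% at 9 dpf. The 5925 short regions without H3K4me3 in these lists did not show it, with 45.6% and 47.8% at 5 dpf, 46.4% and 46.0% at 7 dpf, and 46.3% and 46.7% at 9 dpf. The difference between 9 and 5 dpf in dual-mark regions was 24.6 percentage points by all peaks and 9.56 points at equal length. Of the kept H3K27me3 peaks, 31.5% and 31.1% lay on dual-mark regions at 5 dpf, 32.1% and 32.0% at 7 dpf, and 35.4% and 34.9% at 9 dpf. Every list kept the same number of peaks, so more peaks on dual-mark regions left fewer for all other regions. The contrast with other short regions is thus in part set by the cut. Regions admitted through H3K27me3 at 9 dpf alone still count as without it at 5 and 7 dpf in these lists.

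H3K4me3 on the same regions differed between ages by all peaks and little at equal list length. A peak was present on 2178 (63.6%) and 2369 (69.2%) regions at 5 dpf, 2662 (77.7%) and 2624 (76.6%) at 7 dpf, and 3004 (87.7%) and 3063 (89.4%) at 9 dpf, so that the 3 ages did not overlap. The difference between 9 and 5 dpf was 22.2 percentage points. Long domains had an H3K4me3 peak in 37.1% and 38.6% at 5 dpf, 46.1% and 45.1% at 7 dpf, and 62.9% and 65.4% at 9 dpf. The ages did not overlap there either, so the order by age was not particular to dual-mark regions. At equal length the shares of dual-mark regions were 74.6% and 79.6% at 5 dpf, 79.5% and 79.7% at 7 dpf, and 80.6% and 80.5% at 9 dpf. The difference between 9 and 5 dpf was then 3.47 points. The gap between the 5 dpf libraries was wider than this difference. In both sets of lists, regions admitted through H3K4me3 at 9 dpf alone count as without it at 5 and 7 dpf.

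**Figure D1:**
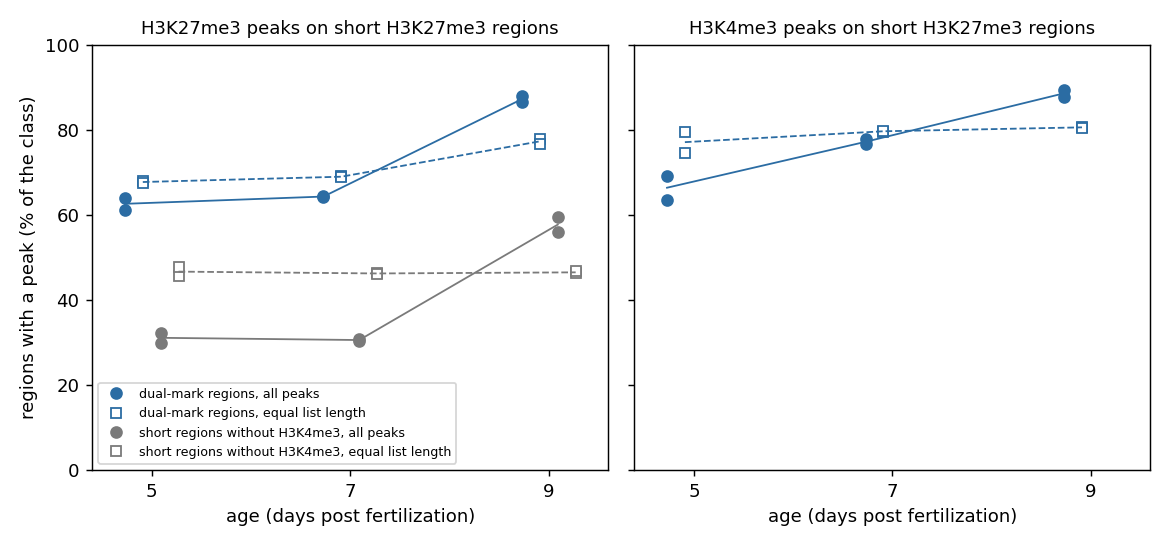
Share of regions with an H3K27me3 peak (left) or an H3K4me3 peak (right) against age in days post fertilization. Each point is 1 library, lines join the means of the 2 libraries of an age, filled circles use all peaks and open squares use lists of equal length; blue shows dual-mark regions and grey shows short regions without H3K4me3. For H3K27me3 the 9 dpf points of dual-mark regions lie highest in both series, while the grey squares stay between 45.6% and 47.8%.

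Counted by age, the state with both marks in both libraries was the most common at every age. At 5 dpf, 1087 regions (31.7%) had both marks, 810 (23.6%) H3K27me3 alone, 944 (27.6%) H3K4me3 alone and 584 (17.1%) neither in both libraries. A mark counted as missing in these states was not in both libraries, and it may have been in 1. At 7 dpf the numbers were 1368 (39.9%), 579 (16.9%), 1052 (30.7%) and 426 (12.4%), and at 9 dpf 2275 (66.4%), 432 (12.6%), 543 (15.9%) and 175 (5.11%). At equal list length, both marks were on 1060 (41.4%), 1144 (44.7%) and 1294 (50.5%) of 2562 regions at 5, 7 and 9 dpf. The order of the ages was the same in both counts, and the steps were smaller in the second. Regions admitted through a mark at 9 dpf alone cannot have both marks at 5 or 7 dpf. Without 1 of the 9 dpf H3K4me3 lists, 3307 or 3279 regions were dual-mark by all peaks, and without 1 of the 5 dpf lists 3399 or 3401. The part of this in the order of the ages was not tested.

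**Figure D2:**
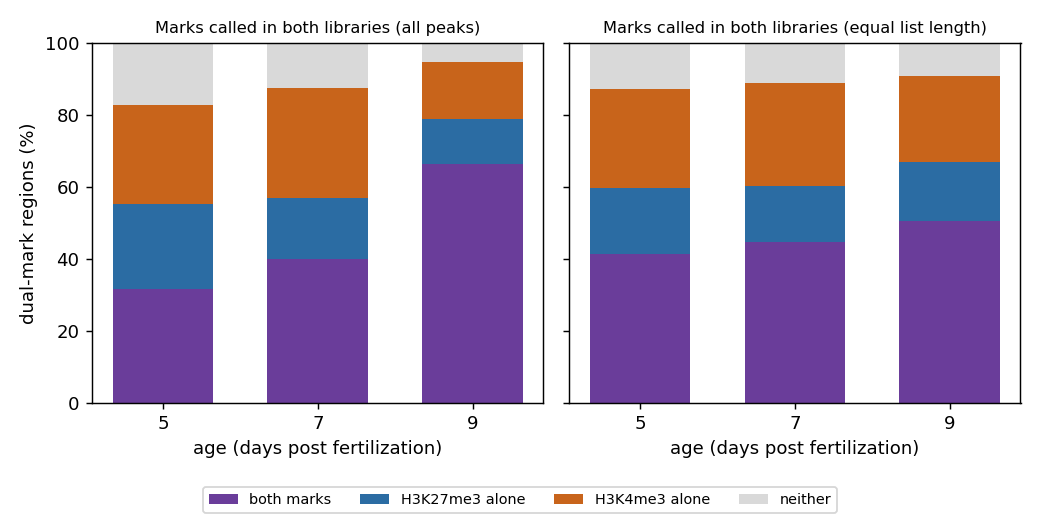
Share of dual-mark regions, in percent, with a peak of both marks, of H3K27me3 alone, of H3K4me3 alone or of neither in both libraries of an age, at 5, 7 and 9 days post fertilization, for all peaks (left, 3425 regions) and for lists of equal length (right, 2562 regions). The share with both marks is highest at 9 dpf in both panels, 66.4% and 50.5%. The regions were chosen by peaks of any age, those of 9 dpf included.

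By all peaks, regions followed from 5 to 9 dpf seldom left the state with both marks, and the lists of both marks were longest at 9 dpf. Of all dual-mark regions, 66.4% had both marks at 9 dpf. Of the 1087 regions with both marks at 5 dpf, 1028 (94.6%) had both at 9 dpf, 43 had H3K4me3 alone, 11 had H3K27me3 alone and 5 had neither. Of the 810 with H3K27me3 alone at 5 dpf, 507 (62.6%) had both at 9 dpf and 282 (34.8%) still had H3K27me3 alone. Of the 944 with H3K4me3 alone, 547 (57.9%) had both at 9 dpf and 381 (40.4%) still had H3K4me3 alone. These changes include regions that had the second mark in 1 library at 5 dpf. At most 298 of the 507 had H3K4me3 in neither 5 dpf library, and at most 350 of the 547 had H3K27me3 in neither. The same holds at 9 dpf: at most 18 of the 43 had H3K27me3 in neither 9 dpf library, and at most 8 of the 11 had H3K4me3 in neither. A change from 1 mark alone to the other alone was found in 8 regions from H3K27me3 to H3K4me3 and in 7 the other way. The step from 5 to 7 dpf kept 901 of 1087 regions (82.9%) with both marks, and 148 of the others had H3K4me3 alone at 7 dpf. At most 99 of the 148 had H3K27me3 in neither 7 dpf library. The state was left more often in the lists of equal length: 846 of 1060 regions with both marks at 5 dpf (79.8%) had both at 9 dpf, 119 had H3K4me3 alone, 74 H3K27me3 alone and 21 neither. At most 83 of the 119 had H3K27me3 in neither 9 dpf library, and at most 61 of the 74 had H3K4me3 in neither. Both marks at 9 dpf were then found on 149 of 467 regions (31.9%) that had H3K27me3 alone at 5 dpf and on 257 of 712 (36.1%) that had H3K4me3 alone. Of all dual-mark regions in these lists, 50.5% had both at 9 dpf.

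A mark was called gained where neither library of the earlier age and both of the later age had a peak, and lost in the reverse case. From 5 to 9 dpf, 529 dual-mark regions (15.4%) gained H3K27me3 and 29 (0.847%) lost it, beside 12.2% gained and 1.47% lost among all 12236 merged H3K27me3 regions. Short regions without H3K4me3 gained it in 11.9% and lost it in 1.85%. In any set of lists, a region with H3K27me3 in 1 list alone can be called neither gained nor lost. By all peaks, such regions were 487 (14.2%) of the dual-mark regions and 4140 (51.0%) of the short regions without H3K4me3. They lower the share gained more in the second class and so in all regions. No excess of H3K27me3 gains in dual-mark regions is therefore read from these shares. From 5 to 7 dpf, 122 dual-mark regions (3.56%) gained it and 99 (2.89%) lost it, beside 2.37% and 2.87% of all regions. From 7 to 9 dpf, 460 (13.4%) gained it and 15 (0.438%) lost it, beside 11.3% and 0.817%. The counts of these steps rest on single libraries. Without 1 library, 118 to 245 regions gained and 91 to 212 lost H3K27me3 from 5 to 7 dpf, and 449 to 705 gained and 14 to 54 lost it from 7 to 9 dpf. Losses exceeded gains from 5 to 7 dpf without the second 5 dpf library, 212 against 194, so no direction is read from that step. The gains of H3K27me3 thus fell mostly between 7 and 9 dpf, in dual-mark regions as in all regions, when the lists were also longest.

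At equal list length a smaller share of regions gained H3K27me3, among dual-mark regions as among all. From 5 to 9 dpf, 208 of 2562 dual-mark regions (8.12%) gained H3K27me3 and 83 (3.24%) lost it, beside 5.65% and 4.21% of all 9164 regions. Short regions without H3K4me3 gained it in 310 cases (5.23%) and lost it in 300 (5.06%), so that their gains and losses were about even. From 5 to 7 dpf, dual-mark regions gained H3K27me3 in 3.86% and lost it in 3.75%, beside 2.92% and 3.70% of all regions. From 7 to 9 dpf they gained it in 6.48% and lost it in 2.62%, beside 4.62% and 3.18%. The counts of losses rest on few regions: leaving out 1 of the 2 libraries at 5 dpf gave 60 or 69 regions that lost H3K27me3 by all peaks, and leaving out 1 at 9 dpf gave 47 or 51, in place of 29.

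The gains differed with length. By all peaks, 32.6% of dual-mark regions of 500 to 1000 bases gained H3K27me3 from 5 to 9 dpf and 15.4% of other short regions of that length did. At 1000 to 2000 bases the shares were 17.9% and 19.8%, and at 2000 to 5000 bases 3.20% and 7.14%. Dual-mark regions of 2000 to 5000 bases mostly had H3K27me3 throughout, with a peak in all 6 lists in 88.6%, against 68.9% of other regions of that length. The larger share of gains in dual-mark regions was thus found below 1000 bases, also under 500 bases, with 14.0% against 5.75%, and not above. Below 1000 bases the classes differed in regions with H3K27me3 in 1 list, which cannot be called gained. These were 21.7% of dual-mark and 54.2% of other short regions at 500 to 1000 bases, and 76.4% and 87.0% under 500 bases. The part of this in the larger share was not tested.

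For H3K4me3, 466 dual-mark regions (13.6%) gained a peak from 5 to 9 dpf and 16 (0.467%) lost one. Counted as merged H3K4me3 regions, 445 of the 3405 that lay on dual-mark regions (13.1%) were gained and 16 (0.470%) lost, beside 6.61% gained and 0.313% lost of all 20118. The 841 H3K4me3 regions on long domains were gained in 208 cases (24.7%). At equal list length, 23 of the 437 on long domains (5.26%) were gained and 13 (2.97%) lost. By all peaks from 5 to 7 dpf, 5.23% of the H3K4me3 regions on dual-mark regions were gained and 0.617% lost, beside 2.97% and 0.442%. From 7 to 9 dpf 5.70% were gained and 0.558% lost, beside 3.34% and 0.517%. Of 2549 such regions at equal list length, 93 (3.65%) were gained and 62 (2.43%) lost from 5 to 9 dpf, beside 2.51% and 1.20% of all 18567. The shares gained and lost were 2.90% and 1.92% from 5 to 7 dpf, beside 1.78% and 0.959%, and 2.71% and 2.47% from 7 to 9 dpf, beside 1.53% and 1.17%. Both directions were then above the background at each step, and the gains no longer far outnumbered the losses. H3K4me3 peaks on dual-mark regions ranked low by fold enrichment in these lists, with median percentiles of 20.3 to 21.3. The part of this low rank in either direction was not tested. Without the second 5 dpf library of H3K4me3, 731 dual-mark regions gained the mark in place of 466. Without either 5 dpf library 49 lost it, and without the second 9 dpf library 25 did, in place of 16. Without 1 library, 183 to 395 dual-mark regions gained and 21 to 84 lost H3K4me3 from 5 to 7 dpf, in place of 190 and 23, and 198 to 372 gained and 18 to 77 lost it from 7 to 9 dpf, in place of 202 and 20.

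**Figure D3:**
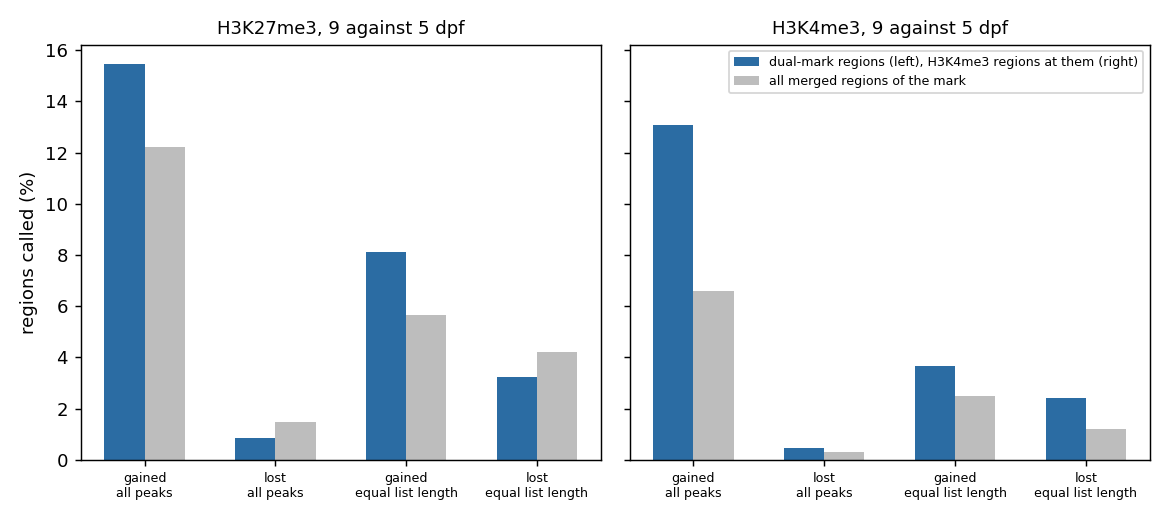
Percent of regions that gained or lost a mark between 5 and 9 days post fertilization, for all peaks and for lists of equal length. Blue bars are dual-mark regions for H3K27me3 (left) and merged H3K4me3 regions lying on them for H3K4me3 (right); grey bars are all merged regions of the mark. By all peaks the gains are 15.4% beside 12.2% for H3K27me3 and 13.1% beside 6.61% for H3K4me3, and at equal length 8.12% beside 5.65% and 3.65% beside 2.51%.

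By all peaks, most regions that gained a mark had the other at 5 dpf, at shares not far above those of all dual-mark regions. Of the 529 regions that gained H3K27me3 from 5 to 9 dpf, 350 (66.2%) had H3K4me3 in both libraries at 5 dpf and 116 had it in neither, beside 59.3% of all dual-mark regions with H3K4me3 in both. At 9 dpf, 460 of them (87.0%) had H3K4me3 in both libraries, beside 82.3% of all. Of the 466 regions that gained H3K4me3, 298 (63.9%) had H3K27me3 in both libraries at 5 dpf and 113 had it in neither, beside 55.4% of all with it in both, and 406 (87.1%) had it in both at 9 dpf, beside 79.0%. Both marks were gained in 67 regions and both lost in 4. A gain of H3K27me3 with a loss of H3K4me3 was found in 1 region and the reverse in 0. These shares follow in part from the rule, which admits a region only if it had each mark in some list.

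The regions that gained H3K27me3 are shown by those with the highest fold enrichment of the mark within the lists that had it. At chr18:48374744-48375494 (751 bases), H3K27me3 peaks covered 0 bases in all 4 libraries of 5 and 7 dpf and 751 and 177 bases in the 9 dpf libraries. H3K4me3 peaks covered 0 and 234 bases of it at 5 dpf, 596 and 564 at 7 dpf, and 571 and 611 at 9 dpf. H3K4me3 was thus called at an earlier age than H3K27me3. The same order held at chr21:13654347-13654835 (489 bases), with 0 bases of H3K27me3 until 9 dpf and then 425 and 457, and with 347 and 438 bases of H3K4me3 at 5 dpf. At chr7:22392195-22392612 (418 bases) both marks were called within the region at 9 dpf alone, H3K27me3 with 181 and 388 bases and H3K4me3 with 357 and 418.

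Among the 29 regions that lost H3K27me3, 18 had H3K4me3 in both libraries at 9 dpf and 10 in neither. When regions with an input peak were left out, 20 of the 29 remained, beside 3398 of all 3425 dual-mark regions. At chr2:37370472-37370911 (440 bases), H3K27me3 covered 391 and 292 bases at 5 dpf and 0 in the other 4 libraries. H3K4me3 covered 272 and 440 bases at 5 dpf and all 440 bases in each of the 4 later libraries. At chr9:48202088-48202655 (568 bases), H3K27me3 covered 386 and 447 bases at 5 dpf and 0 later, and H3K4me3 went from 300 and 568 bases to 568 in each later library. These regions kept H3K4me3 across the ages.

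For H3K4me3, the region that gained it with the highest fold within its lists was chr11:28430-29652 (1223 bases). H3K4me3 covered 0 bases in the 4 libraries of 5 and 7 dpf, and 375 and 669 at 9 dpf, while H3K27me3 covered 941 and 742 bases at 5 dpf, 671 and 709 at 7 dpf, and 1180 and 1157 at 9 dpf. At chr4:5767615-5768151 (537 bases), both marks were called within the region at 9 dpf alone, H3K27me3 with 537 and 464 bases and H3K4me3 with 384 and 139. Bases are counted inside the H3K27me3 region, while the fold is that of the whole peak. An H3K4me3 peak beside the region at an earlier age would thus not be counted. The opposite was seen at chr7:37204807-37207556 (2750 bases), where H3K4me3 covered 148 and 187 bases at 5 dpf and 0 later. H3K27me3 there covered 1092 and 1235 bases at 5 dpf, 1614 and 2375 at 7 dpf, and 2063 and 2633 at 9 dpf. At chr24:12270713-12271350, another region that lost H3K4me3, 2 of the 3 input lists had a peak too. Of the 16 dual-mark regions that lost H3K4me3 from 5 to 9 dpf, 11 remained when regions with an input peak were left out.

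The 887 regions with both marks in all 12 libraries were longer than dual-mark regions in general, with a median of 2417 bases and a range of 560 to 4931. H3K27me3 peaks covered a median of 1447 and 1425 bases of them at 5 dpf, 1460 and 1469 at 7 dpf, and 1851 and 1844 at 9 dpf. H3K4me3 peaks covered a median of 692 and 846 bases at 5 dpf, 965 and 917 at 7 dpf, and 1053 and 1066 at 9 dpf. Both marks thus covered more bases in each 9 dpf library than in any earlier library.

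Among these steady regions, the one with the highest H3K27me3 fold within the lists was chr14:190397-192948 (2552 bases), at a mean percentile of 99.9 of its lists. H3K27me3 covered 2102 and 2078 bases at 5 dpf, 2404 and 1586 at 7 dpf, and 2547 and 1985 at 9 dpf, with no order by age. H3K4me3 covered 384 and 573, 685 and 746, and 829 and 1195 bases, higher at each later age, at a mean percentile of 19.9. The next region, chr14:201879-206490 (4612 bases), lay close by on the same chromosome and had mean percentiles of 99.5 for H3K27me3 and 30.9 for H3K4me3. At chr25:36103050-36107041 (3992 bases) H3K27me3 covered between 3854 and 3984 bases and H3K4me3 between 1768 and 2436 in every library. Of the 10 regions chosen in this way, chr9:29855395-29859061 (3667 bases) had the highest mean percentile of H3K4me3, 55.2. Its H3K4me3 percentiles were 54.7 and 59.2 at 5 dpf, 59.2 and 72.3 at 7 dpf, and 44.0 and 41.7 at 9 dpf.

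Regions with an H3K27me3 peak in all 6 lists were asked whether both libraries of an age covered more bases than both of another. Of 1629 such dual-mark regions, 834 (51.2%) were wider at 9 than at 5 dpf and 116 (7.12%) narrower, beside 46.4% and 9.44% of all 3410 such regions and 40.9% and 11.1% of the 1095 short ones without H3K4me3. In the lists of equal length 623 of 1214 (51.3%) were wider and 79 (6.51%) narrower, beside 45.5% and 9.55%. From 5 to 7 dpf 376 were wider (23.1%) and 321 narrower (19.7%), beside 22.1% and 20.0%, so the directions were near even there. From 7 to 9 dpf 775 were wider (47.6%) and 113 narrower (6.94%), beside 43.4% and 9.35%. Of the H3K4me3 regions on dual-mark regions with a peak in all 6 lists, 1399 of 2022 (69.2%) were wider at 9 than at 5 dpf and 33 (1.63%) narrower, beside 67.1% and 2.42% of all 15400. With equal lists 1149 of 1624 (70.8%) were wider and 21 (1.29%) narrower, beside 67.4% and 2.35%. These shares were near the background, and wider H3K4me3 peaks were found across the genome.

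The rule admits only short regions in which the marks overlap in some list, so peaks of both marks that share bases and lie close together follow largely from it, and the distances are given as a description. In the 6 pairs of libraries of the same age and number, between 1360 and 2679 dual-mark regions had a peak of both, and the peaks shared bases in 95.7% to 98.8% of them. H3K4me3 covered a median of 49.7% to 59.2% of the H3K27me3 peak. Where each mark had a single peak, their centres lay a median of 234 and 245 bases apart at 5 dpf, 217 and 235.5 at 7 dpf, and 221.5 and 215.5 at 9 dpf. The centre of the H3K4me3 peak was inside the H3K27me3 peak in 82.3% to 85.5%. Where both peaks had stronger stretches within them, these overlapped in 90.9% to 97.5%. The resolution of the peaks is set by chromatin fragments of about 300 bases.

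**Figure D4:**
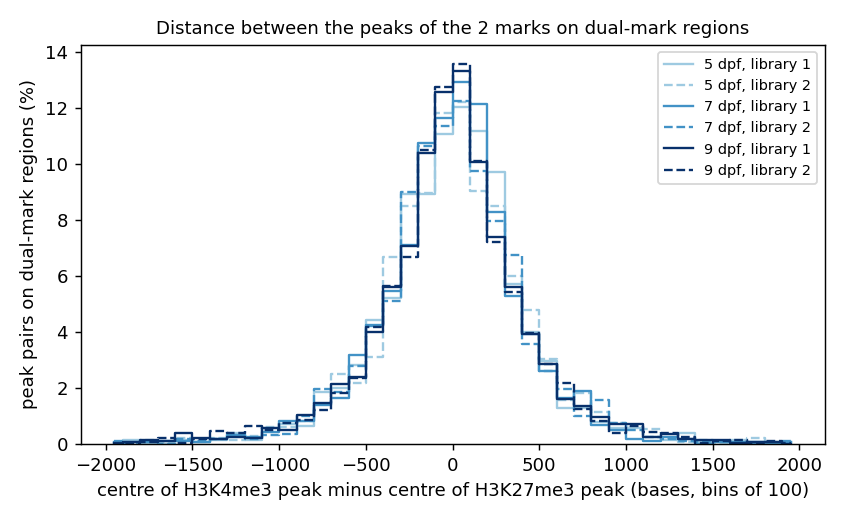
Distance from the centre of the H3K27me3 peak to the centre of the H3K4me3 peak, in bases, on dual-mark regions with a single peak of each, as percent of such regions in bins of 100 bases. Each line is 1 pair of libraries of the same age and number; all 6 are centred near 0, with median absolute distances of 215.5 to 245 bases.

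Over all libraries, merged H3K4me3 peaks covered a median of 54.4% of a dual-mark region, with quartiles of 31.4% and 88.5%. The H3K4me3 region lay wholly inside 1644 dual-mark regions (48.0%), reached past 1 end of 1151 (33.6%) and past both ends of 593 (17.3%), and 37 (1.08%) held several. The most common arrangement was thus an H3K4me3 region inside a longer H3K27me3 region. H3K4me3 regions on dual-mark regions had a median length of 930 bases, against 1045 on long domains and 1193 elsewhere.

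H3K4me3 peaks on dual-mark regions ranked low in their own lists. By the authors' fold enrichment, the strongest H3K4me3 peak of a dual-mark region had a median percentile of 21.1 and 21.2 at 5 dpf, 22.6 and 22.8 at 7 dpf, and 23.3 and 23.7 at 9 dpf. Between 0.229% and 0.459% of them were among the 10% with the highest fold in their list. They were also narrower, with median widths of 665 to 864 bases beside 827 to 1079 for other H3K4me3 peaks. H3K27me3 peaks on the same regions ranked near the middle or above, with median percentiles of 56.3 and 53.7 at 5 dpf, 54.7 and 54.3 at 7 dpf, and 64.4 and 63.0 at 9 dpf. Lists of unequal length do not allow these percentiles to be compared across ages. At equal length the H3K27me3 medians were 51.0 to 54.3 on dual-mark regions and 42.5 to 44.7 on other short regions, and the H3K4me3 medians were 20.3 to 21.3.

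**Figure D5:**
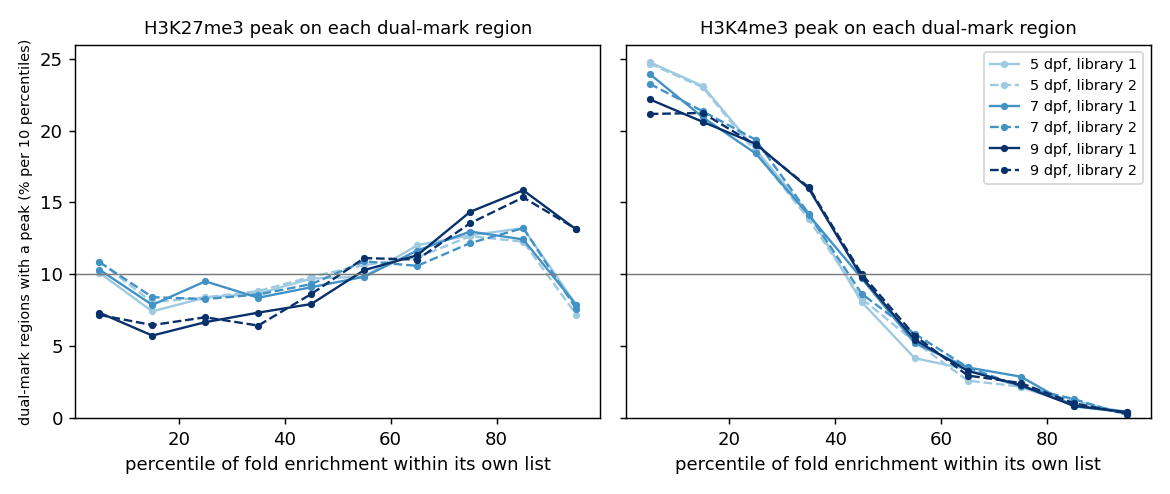
Percentile of each dual-mark region's strongest peak by fold enrichment within its own list, as percent of the dual-mark regions with a peak in bins of 10 percentiles, for H3K27me3 (left) and H3K4me3 (right). Each line is 1 library, and the grey line marks an even spread; the H3K4me3 lines lie highest at the lowest percentiles, with medians of 21.1 to 23.7, and the H3K27me3 medians are 53.7 to 64.4.

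H3K27me3 on dual-mark regions was found in more libraries than on other short regions. A peak was present in all 6 lists on 1629 dual-mark regions (47.6%) and in 1 list on 487 (14.2%), whereas of short regions without H3K4me3 1095 (13.5%) had it in all 6 and 4140 (51.0%) in 1. The difference was present within each length class from 500 bases up. At 1000 to 2000 bases 46.9% of dual-mark and 23.7% of other short regions had a peak in all 6 lists, and at 500 to 1000 bases 7.64% and 2.96% did. Under 500 bases only 1 of 406 dual-mark and 2 of 2937 other short regions did, too few to compare. H3K4me3 was present in all 6 lists on 1953 dual-mark regions (57.0%) and in 1 on 397 (11.6%).

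The dual-mark regions lay apart from other H3K27me3. The nearest other H3K27me3 region was a median of 35524 bases away, against 2928 for short regions without H3K4me3, and 25.5% had one within 5000 bases, against 57.4%. A long domain lay within 20000 bases of 3.30% of dual-mark regions and of 15.4% of other short regions. From 1 dual-mark region to the next on the same chromosome the median distance was 119766 bases. Their spread over the chromosomes was wide, with 92 on chromosome 22 to 194 on chromosome 5, and 34 on 32 unplaced scaffolds. The dual-mark share of short regions ran from 23.7% on chromosome 21 to 36.4% on chromosome 8.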

How the data were processed

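H3K27me3, H3K4me3 and input peak lists (6, 6 and 3 libraries) and an RNA table of 9 libraries were used. The submitters' processing notes name the build GRCz10 and, with no role given, the tools STAR 2.5.2b, DESeq2 1.16.1, BWA 0.7.15, Picard and MACS2 2.1.1. The authors deposited 1 peak list per library, with a fold enrichment ratio, a -log10 p and -log10 q, and a score that, for all but at most a few peaks per list, equals 10 times the -log10 q rounded down. The control and threshold of the peak calls are not given in the sources used here. RNA values came as a deposited signal, read counts normalized by the authors. Without known ChIP depth, no interval is given.

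Peaks were merged, overlapped (1 base or more) and counted with Python 3.11.15, numpy 2.4.6 and pandas 2.3.3, and the counting was tested on 3000 simulated regions. Folds were used only to rank peaks within a list. A mark was held at an age where both libraries had a peak. The 10 regions named for each pattern had the highest mean percentile of fold among those that met it, and the text gives some of these. The 5 longest regions inside and the 5 shortest outside the length limit were named by the same rule, and the regions of smallest overlap were chosen after their values were seen. The regions, lists and cell type markers were chosen with earlier results of these data known. Lists of equal length were added after seeing the data. Region-to-gene links, the RNA of linked genes and region sequences, which need an annotation or genome of GRCz10, were not analysed here.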

Additional observations from a re-analysis of the deposited data

How the results depend on the processing

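Under the alternatives named here the differences between 9 and 5 dpf kept their direction, and gains exceeded losses at every step but 1: from 5 to 7 dpf, H3K27me3 was gained on 122 and lost on 99 regions, but gained on 67 and lost on 94 with peaks of a -log10 q of 5 or more, and gained on 194 and lost on 212 without the second 5 dpf library. The count of dual-mark regions, 3425, was 2198 with peaks of a -log10 q of 5 or more, 2562 at equal list length and 2930 with a limit of 3000 bases, and 3249 to 3411 without 1 library. With the -log10 q of 5 or more, the difference between 9 and 5 dpf was 32.0 percentage points for H3K27me3 and 29.1 for H3K4me3, 7 regions lost H3K4me3, 300 were wider in H3K27me3 and 800 H3K4me3 regions were wider. With regions under 3000 bases the H3K27me3 difference was 28.4 points. At equal list length the differences were 9.56 and 3.47 points, 208 and 83 regions gained and lost H3K27me3, and 107 and 61 gained and lost H3K4me3. Without 1 library, the difference was 23.2 to 26.3 points for H3K27me3 and 19.5 to 25.2 for H3K4me3; 513 to 773 regions gained and 25 to 69 lost H3K27me3, 457 to 731 gained and 15 to 49 lost H3K4me3, 786 to 1151 were wider in H3K27me3, and 1322 to 1859 H3K4me3 regions were wider. Losing 1 library of an age eases the call at that age by construction. An H3K4me3 overlap of 200 bases, joining peaks within 1000 bases, leaving out regions with an input peak and keeping the 25 chromosomes moved none of these results by over 1.5 times or 1 SD. Without regions with an input peak, the regions that lost a mark from 5 to 9 dpf were 20 in place of 29 for H3K27me3 and 11 in place of 16 for H3K4me3. No paired analysis was possible because the results come from no test. Other settings for the RNA of linked genes (pseudocount, filter, scaling, replicate block, count test, link distance) were not run, since genes were not linked to regions here. The unknown ChIP depth limits all counts of absent peaks.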

Other observations

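The share of dual-mark regions that gained H3K27me3 from 5 to 9 dpf ran from 8.02% (13 of 162) on chromosome 2 to 24.8% (29 of 117) on chromosome 15. Of all merged H3K27me3 regions, 9.55% were gained on chromosome 2 and 14.0% on chromosome 15, and the shares over the chromosomes ran from 9.55% to 15.5%. At equal list length the dual-mark shares were 3.42% (4 of 117) on chromosome 2 and 10.8% (10 of 93) on chromosome 15, beside 3.22% and 5.14% of all regions, and the highest share was on chromosome 18, with 14.5% (10 of 69) beside 7.14%. The merged H3K4me3 regions on dual-mark regions were gained in 7.73% (15 of 194) on chromosome 5 to 18.0% (23 of 128) on chromosome 17, beside 4.64% and 7.37% of all merged H3K4me3 regions there. At equal list length the H3K4me3 shares ran from 0 of 117 on chromosome 2 to 9.09% (8 of 88) on chromosome 11, beside 1.47% and 3.38%. The counts per chromosome are small, the order of the chromosomes differed between the lists, and the differences were not tested.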
